A study of Mus musculus with 5 samples.

Results

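The 8 genes described here are the common gamma chain of the cytokine receptors (Il2rg), the chains that pair with it (Il2ra, Il2rb, Il7r, Il4ra and Il21r), and the cytokine IL-15 (Il15) with its own binding chain (Il15ra). They were chosen by name, with earlier results of these data known. The choice was out of 32285 genes listed for tumor-draining lymph nodes (TDLNs) and 33696 listed for MC38 tumors. All 8 were found in all 5 count matrices. The common gamma chain is shared by the receptors for IL-2, IL-4, IL-7, IL-9, IL-15 and IL-21. IL-2 and IL-15 share the beta chain Il2rb, and each adds an alpha chain of its own, Il2ra (CD25) or Il15ra, that raises affinity. IL-15 is usually held on Il15ra at the surface of one cell and shown to Il2rb and Il2rg on a neighbor. These receptors signal through JAK1 and JAK3 to STAT proteins, and in lymphoid tissue they are known for keeping naive T cells alive through IL-7, for regulatory T cell fitness through IL-2, and for NK cell and memory CD8 T cell maintenance through IL-15.

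Single-cell 5′ RNA-seq was done on TDLNs of mice bearing TRAMP-C2 prostate tumor cells (3 reactions) and on MC38 colon tumors (2 reactions), from male wild-type C57BL/6J mice aged 8 to 10 weeks with tumor cells placed under the skin. Isotype antibody or checkpoint inhibition (CPI, antibodies to PD-1 and CTLA4 together) was given 3 times, at day 3, day 6 and day 9. Vehicle or the JAK1 inhibitor ABT-317 (20 mg/kg) came at day 12, and tissue was taken at day 15. The sequencing methods of the study count days from implantation for both tumors. For MC38, a figure legend counts them from enrollment at a set tumor volume, so tumor age may differ between the tissues. MC38 tumor suspensions were sorted and mixed in equal parts of CD45-positive and CD45-negative cells, whereas TDLN cells were not sorted. Hashtag antibodies marked the 4 treatments (isotype, isotype + ABT-317, CPI, CPI + ABT-317) in MC38 tumors, each from at least 3 mice that cannot be told apart in the files. In the TDLN files all antibody counts were 0, so TDLN cells could not be split by treatment and every TDLN value is a mixture of the treatments in unknown parts.

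The TDLN reactions held 62575, 56511 and 7050 barcodes, and the MC38 reactions 37774 and 27582. Classes were set by marker genes that include no member, and they are called by the cell they resemble (B-like, CD8 T-like and so on). In TDLN reactions 1, 2 and 3, 56308, 47900 and 6235 barcodes (at least 84.8% of a reaction) carried both T cell and B cell RNA and were set aside as mixed, so the 7 TDLN classes rest on 3384 barcodes. The 13 MC38 classes rest on 30883 barcodes. The T cell marker sum was 0 in B-like cells and 2657 to 3572 UMIs per 1000000 UMIs (CPM) in TDLN T-like classes, where the B cell marker sum was still 81.9 to 348 CPM, against 7779 to 7979 CPM in B-like cells. The gates fixed much of this, since B-like cells had to lack every T cell marker. TDLN T-like cells could hold at most 1 B cell marker gene. In MC38 T-like and NK-like cells, where gates capped both, the macrophage marker sum was 513 to 1245 CPM and the fibroblast marker sum 455 to 1881 CPM. The tumor-type genes (Hmga1, Psph, Ube2c and Phgdh) were leading genes of the deep Ptprc-negative class, deeply sequenced MC38 barcodes without the pan-leukocyte gene Ptprc. Their sum was 1409 to 1659 CPM in that class, 230 to 985 CPM in T-like and NK-like cells and 803 to 1509 CPM in DC-like cells. It was 1189 and 1873 CPM in neutrophil-like cells and 895 to 955 CPM in endothelial-like cells. TDLN T-like classes held 83.1 to 544 CPM of it, so in the node it cannot be read as tumor RNA. The part of these markers in the levels was not tested. TDLN reaction 3 held at least 10 cells in 1 class (other T-like, 18 cells), so TDLN comparisons between the other classes rest on reactions 1 and 2, and reaction 3 enters through other T-like cells alone. TDLN reactions 1 and 2 shared 4842 barcode sequences (8.57% of the smaller) and the MC38 reactions 1416 (5.13%). Pairs of a TDLN and an MC38 reaction, from different tissues, shared 3.84 to 8.7%.

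The Foxp3+ T-like classes and the cytotoxic and naive-type CD8 T-like classes of the TDLN were checked with genes that did not define them. Ikzf2 did help to limit the CD4 T-like class of the TDLN. No such check is given here for the other classes. In MC38 Foxp3+ T-like cells the regulatory T cell gene Ikzf2 was at 1761 and 755 CPM in reactions 1 and 2, against 88.5 and 40.0 CPM in CD8 T-like cells. In TDLN Foxp3+ T-like cells Ikzf2 was at 2341 and 1405 CPM. The cytotoxic and naive-type CD8 T-like classes of the TDLN were separated by cytotoxic genes. Cells of the cytotoxic class could also hold at most 1 of the NK cell genes Ncr1, Klrb1c, Klra8, Klre1 and Klra4, a limit the naive-type class did not have. Lef1, a gene of naive T cells, was at 875 and 735 CPM in the cytotoxic class and at 816 and 912 CPM in the naive-type class, so the classes overlapped in this gene. MC38 cells with over 12000 UMIs and no Ptprc (CD45) RNA are called deep Ptprc-negative cells and stand for the tumor-side background.

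Pairs of the 8 genes lie side by side in the genome. In the GRCm38 annotation (GENCODE vM21), Il2ra lies on the plus strand at chr2:11642807-11693193 and Il15ra at chr2:11705290-11734317, 12096 bases apart with 0 genes starting between them. Il4ra (chr7:125552120-125579474) and Il21r (chr7:125603429-125633570) are 23954 bases apart on the plus strand of chromosome 7, also with 0 genes between. Il7r (chr15:9505788-9530176), Il2rb (chr15:78479256-78495271), Il15 (chr8:82331632-82403222) and Il2rg (chrX:101264378-101268255) are on the minus strand. An overlapping same-strand gene model, Gm20489, covers part of Il2rg, and Gm37881 and the antisense Gm44876 overlap Il2ra and Il4ra, so reads there may have been split or dropped by the counting. The MC38 matrices list another gene set, so these positions apply to the annotation and not to the counting.

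Il2ra and Il7r moved in opposite directions in the TDLN Foxp3+ T-like cells described next, and the sequence upstream of their RefSeq starts (GRCm38.p6) is shown to place the 2 genes side by side. Capitals mark TTCNNNGAA, the core letters of a STAT binding motif, which reads alike on both strands. The Il7r window is cut to the bases that lie in no annotated exon.
Il2ra, chr2:11642542-11642791, plus strand: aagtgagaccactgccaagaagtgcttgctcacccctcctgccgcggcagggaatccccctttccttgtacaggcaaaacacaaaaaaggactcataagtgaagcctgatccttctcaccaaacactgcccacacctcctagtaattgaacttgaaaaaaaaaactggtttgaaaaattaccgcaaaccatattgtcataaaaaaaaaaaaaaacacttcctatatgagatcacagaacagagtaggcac
Il7r, chr15:9529877-9530040, minus strand: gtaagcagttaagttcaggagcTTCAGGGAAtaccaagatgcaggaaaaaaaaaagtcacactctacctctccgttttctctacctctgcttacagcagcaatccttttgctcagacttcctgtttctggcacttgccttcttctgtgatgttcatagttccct
The letters occurred once, 142 bases before the RefSeq start of Il7r. By the GENCODE vM21 bounds of the gene, that window lies inside Il7r, outside every annotated exon, since 1 annotated transcript starts farther upstream. The letters were in 1 of 7 windows of 250 bases from the 6 members that have an entry (Il2rg, Il2ra, Il7r, Il4ra, Il21r and Il15ra). Over all promoters of that length, 7.02% (2306 of 32851) held them.

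Il2rg was the most even member in the TDLN. Its level was 424 and 504 CPM in B-like cells, 444 and 476 CPM in CD4 T-like cells, 488 and 425 CPM in Foxp3+ T-like cells and 340 and 450 CPM in cytotoxic CD8 T-like cells (reactions 1 and 2). No class stood apart, and none of the 6 neighboring pairs of classes in its order passed the test. The mixed barcodes held 484, 497 and 531 CPM in the 3 reactions. Il21r, whose ligand IL-21 acts on B cells and T cells alike, and Il4ra, the chain for IL-4, were also spread over all lymphoid classes. Il21r ranged from a mean of 166 CPM in B-like cells to 265 CPM in naive-type CD8 T-like cells, and Il4ra from 105 to 179 CPM. None of their neighboring pairs passed the test.

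The chains that separated TDLN classes were Il2ra, Il2rb and Il7r. Il2ra, the alpha chain of the high-affinity IL-2 receptor, was at 244 and 250 CPM in Foxp3+ T-like cells, from 5 and 23 UMIs. In CD4 T-like cells without Foxp3 it was at 0 and 28.0 CPM, and in B-like cells at 4.56 and 6.86 CPM. The Foxp3+ values lay above those of every other TDLN class in both reactions, and the step down to other T-like cells (25.7, 41.9 and 23.4 CPM) passed the test (edgeR quasi-likelihood, adjusted p = 5.34e-07). Il2rb was at 146 and 316 CPM in Foxp3+ T-like cells and at 214 and 240 CPM in cytotoxic CD8 T-like cells, neighbors in the order that did not differ beyond their spread (adjusted p = 0.932). It was lower in naive-type CD8 T-like cells, at 60.4 and 96.5 CPM, in CD4 T-like cells, at 59.8 and 56.0 CPM, and lowest in B-like cells, at 3.04 and 5.88 CPM. Il7r, the IL-7 receptor alpha chain of resting T cells, was at 760 and 624 CPM in CD4 T-like cells, 570 and 626 CPM in naive-type CD8 T-like cells and 585 and 392 CPM in Foxp3+ T-like cells. B-like cells held 25.8 and 17.6 CPM. Of 36 neighboring pairs tested in the TDLN, 5 passed, against 9.82% of the gene tests over all neighboring pairs of classes. They were Foxp3+ over other T-like for Il2ra, cytotoxic over other CD8 T-like and CD4 T-like over B-like for Il2rb, and naive-type CD8 over Foxp3+ T-like and Foxp3+ T-like over B-like for Il7r. The fit put Il7r higher in naive-type CD8 than in Foxp3+ T-like cells by 0.86 ± 0.24 (log2). In CPM this held in reaction 2 alone, and in reaction 1 the order was reversed (570 against 585 CPM).

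**Figure D1:**
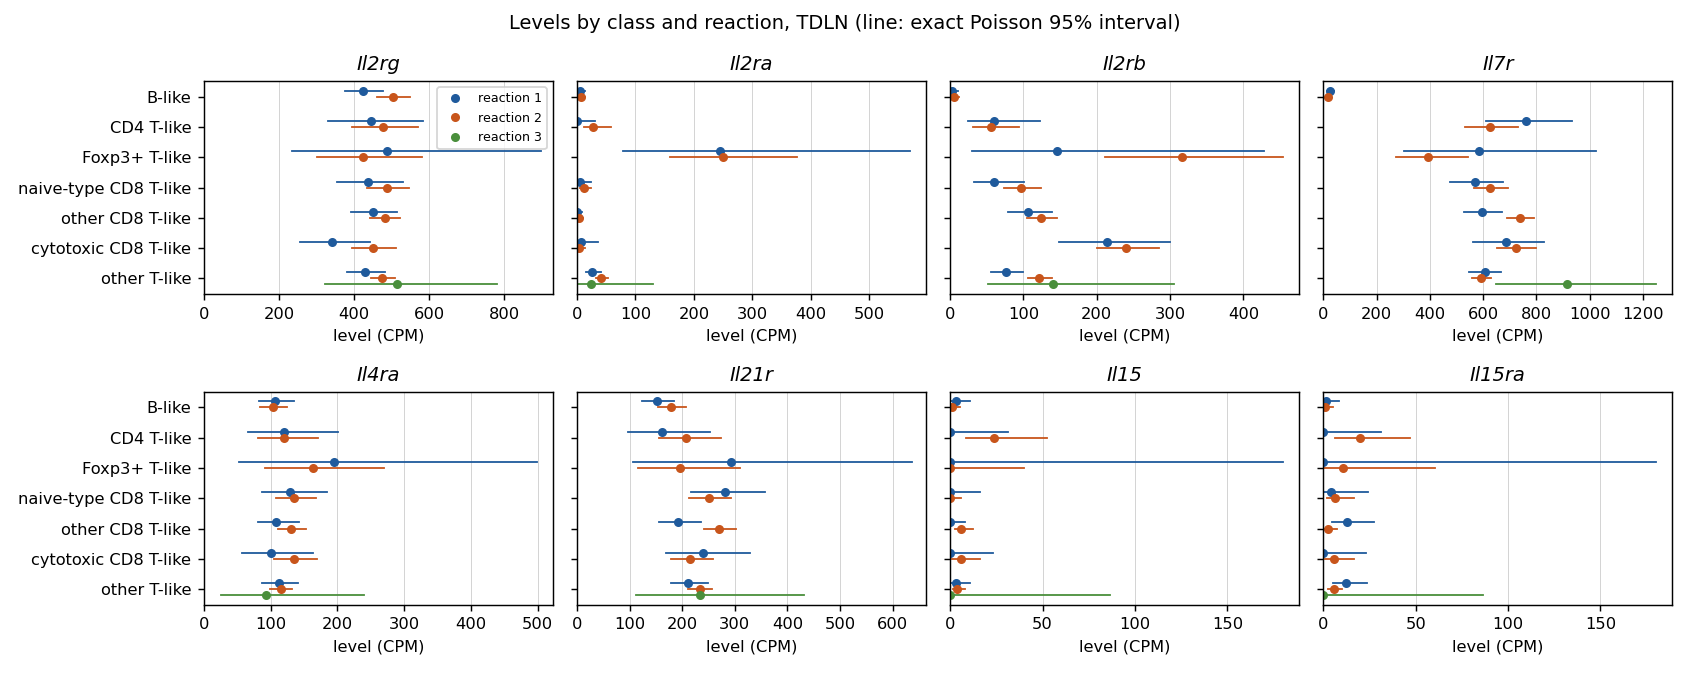
Level of each member in 7 TDLN classes, in CPM on the horizontal axes, which differ in range between panels. Points are reactions with at least 10 cells and lines are exact Poisson 95% intervals that cover counting error only. Il2rg lies between 340 and 515 CPM in all classes, Il7r separates the T-like classes from B-like cells (25.8 and 17.6 CPM), and Il2ra stands out in Foxp3+ T-like cells (244 and 250 CPM).

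The first comparison asked how Foxp3+ T-like cells of the node differ from CD4 T-like cells without Foxp3. The gate kept out of the latter any cell with RNA of more than 1 of the regulatory T cell genes Ikzf2, Ctla4 and Tnfrsf18. The part of that gate in the differences was not tested. Differences are Foxp3+ minus CD4 T-like cells. Il2ra was higher by 3.37 ± 0.58 (log2 fold change ± SE, n = 2 reactions, edgeR, adjusted p = 9.26e-07) and Il2rb by 2.00 ± 0.42 (adjusted p = 0.000148). In reaction 2 the Foxp3+ T-like cells also held more RNA of the 4 tumor-type genes (544 against 104 CPM) and of B cell markers (348 against 136 CPM). In reaction 1 these sums were 146 against 94.0 CPM and 195 against 188 CPM, the Foxp3+ values from 3 and 4 UMIs. The 4 genes were picked from MC38 cells. B-like cells of the node held 119 and 139 CPM of them, so they do not stand for tumor RNA here. The part of these sums in the differences was not tested. Il7r was lower, with a log2 fold change of -0.94 ± 0.25 (adjusted p = 0.00655), where the median over all genes was -0.16. The Il7r call did not hold with DESeq2 (adjusted p = 0.0653) or without the reaction block (adjusted p = 0.0762), and 760 and 624 CPM against 585 and 392 CPM do not overlap. Il2rg (-0.39 ± 0.26), Il4ra (0.21 ± 0.43) and Il21r (-0.13 ± 0.37) did not pass, and Il15 and Il15ra were too low to be tested. Of the 6 members tested 3 were called, against 3.51% of all genes. Among 24 further genes of the pathway, 16 were tested, 2 rose and 1 fell, and their median log2 fold change was -0.17. Pim1, a STAT5-induced survival kinase, was at 1268 and 926 CPM against 367 and 240 CPM, and Stat3 was also higher. Bcl2, the anti-apoptotic gene that IL-7 sustains, was at 146 and 109 CPM against 256 and 232 CPM. Jak1, Jak3, Stat5a and Stat5b did not pass, with log2 fold changes of -0.18 ± 0.25, -1.14 ± 1.48, -1.26 ± 0.65 and -0.44 ± 0.30.

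Between CD8 T-like cells of the node with and without cytotoxic genes, Il2rb was the only member called. It was higher with cytotoxic genes by 1.45 ± 0.21 on the log2 scale (n = 2 reactions, edgeR, adjusted p = 4.42e-09), and the values of 214 and 240 CPM lay above 60.4 and 96.5 CPM. The share of all genes called here was 0.887%. Il7r did not pass, at 686 and 722 CPM against 570 and 626 CPM (log2 fold change 0.24 ± 0.14, adjusted p = 0.732). Of 16 pathway genes tested, Bcl2 alone was called, higher by 0.80 ± 0.18 (adjusted p = 0.00122), with a list median of 0.10 beside -0.01 over all genes. Median depth was 3680 UMIs per cell with cytotoxic genes and 2015 without.

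B-like cells held less Il7r and Il2rb than CD4 T-like cells while Il2rg, Il4ra, Il21r and Il2ra were not called. Il7r differed by a log2 fold change of -5.00 ± 0.23 (n = 2 reactions, edgeR, adjusted p = 2.73e-102) and Il2rb by -3.49 ± 0.57 (adjusted p = 1.78e-08), so 2 of 6 members tested were called, against 23.4% of all genes. Il2rg differed by 0.02 ± 0.16 and Il21r by -0.19 ± 0.22. The macrophage marker sum was 255 and 293 CPM in B-like and 17.1 and 20.0 CPM in CD4 T-like cells, and its part in the differences was not tested. Under a stricter marker gate the Il2rb call was lost (adjusted p = 0.612) and Il2ra, lower in B-like cells, passed (adjusted p = 0.0439). Of 16 pathway genes tested, 2 were higher and 6 lower in B-like cells, with a median log2 fold change of -0.81 beside 0.04 over all genes. The transducers of IL-2 and IL-7 signals, Stat5a (-2.99 ± 0.43) and Stat5b (-2.57 ± 0.23), were among the lower ones together with Socs1, Pim1, Bcl2 and Jak1, and Myc (3.02 ± 0.49) and Stat3 were higher.

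In MC38 tumors Il2ra was highest in T-like classes and Il2rb in T-like and NK-like classes, whereas Il2rg, Il7r and Il21r were highest in T-like classes and also measured in macrophage-like and mature DC-like cells. Il2ra was at 651 and 356 CPM in Foxp3+ T-like cells, from 17 and 25 UMIs in 14 cells of each reaction. CD8 T-like cells held 53.1 and 85.3 CPM and other T-like cells 88.5 and 125 CPM. All other MC38 classes were at or below 21.6 CPM. The step from Foxp3+ to other T-like cells fell just short (adjusted p = 0.0508), and the step from CD8 T-like to mature DC-like cells passed (adjusted p = 0.00423).

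Il2rb was at 183 and 431 CPM in NK-like cells, 230 and 242 CPM in Foxp3+ T-like cells, 215 and 237 CPM in CD8 T-like cells and 175 and 273 CPM in other T-like cells. No neighboring pair among these 4 classes passed the test, and every non-lymphoid class was at or below 8.06 CPM. Il2rg, by contrast, reached beyond lymphocytes. It was at 306 and 256 CPM in Foxp3+ T-like cells, 185 and 261 CPM in CD8 T-like cells and 91.6 and 190 CPM in NK-like cells. Macrophage-like cells held 77.9 and 90.9 CPM, endothelial-like cells 52.4 and 58.7 CPM and deep Ptprc-negative cells 8.58 and 10.1 CPM. The step from macrophage-like to endothelial-like cells passed the test (adjusted p = 7.74e-05).

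Il7r was at 308 and 293 CPM in CD8 T-like cells, 383 and 114 CPM in Foxp3+ T-like cells and 173 and 296 CPM in other T-like cells. NK-like cells held 7.63 and 16.6 CPM, less than macrophage-like cells, at 70.1 and 69.1 CPM, and mature DC-like cells, at 58.7 and 76.1 CPM. The T cell marker sum in macrophage-like cells, which the gate itself kept low, was 3.32 to 4.82 CPM, and its part in their Il7r level was not tested. Il21r was at 134 and 187 CPM in other T-like cells, 96.1 and 152 CPM in CD8 T-like cells and 40.1 and 41.3 CPM in macrophage-like cells. Il4ra was found in most classes, at 69.6 and 69.8 CPM in macrophage-like cells, 53.3 and 56.5 CPM in fibroblast-like cells and 35.4 and 53.3 CPM in CD8 T-like cells. Deep Ptprc-negative cells held 2.65 and 2.32 CPM of Il4ra, and the step to them from neutrophil-like cells passed the test (adjusted p = 0.00712).

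The ligand and its binding chain were low throughout. Il15 had its highest mean in endothelial-like cells, at 28.7 and 18.0 CPM. Neutrophil-like cells, at 17.1 and 21.6 CPM, and macrophage-like cells, at 19.0 and 19.2 CPM, lay higher in reaction 2. The step to neutrophil-like cells did not pass (edgeR, adjusted p = 0.907). The neutrophil-like sum of reaction 2 held 600550 UMIs from 36 cells with a median of 870.5, so deeper barcodes supplied most of it. Its tumor-type sum was 1873 CPM, and the part of these barcodes in the Il15 level was not tested. Thinned to 1000 UMIs, 0 of 59 neutrophil-like cells held Il15 (exact interval to 6.06%) and 2.03% of macrophage-like cells did. The latter share lies within that interval, so these shares do not rank the classes. Il15 was at 6.24 and 5.83 CPM in deep Ptprc-negative cells. Il15ra was at 23.5 and 29.9 CPM in fibroblast-like cells, 16.8 and 34.9 CPM in mature DC-like cells, 12.2 and 13.7 CPM in deep Ptprc-negative cells and 6.49 and 6.41 CPM in macrophage-like cells. Thus macrophage-like cells had more Il15 than deep Ptprc-negative cells and less Il15ra in both reactions. No neighboring pair passed for either gene. In the TDLN, Il15 and Il15ra had 28 and 43 UMIs in all 7 classes together, too few to enter the fits, so differences between classes were not tested. Of 96 neighboring pairs tested in MC38 tumors 5 passed, against 17.9% of the gene tests over all pairs; besides the steps named above for Il2ra, Il2rg and Il4ra, they were other T-like over monocyte-like for Il2rb and other T-like over macrophage-like for Il7r.

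**Figure D2:**
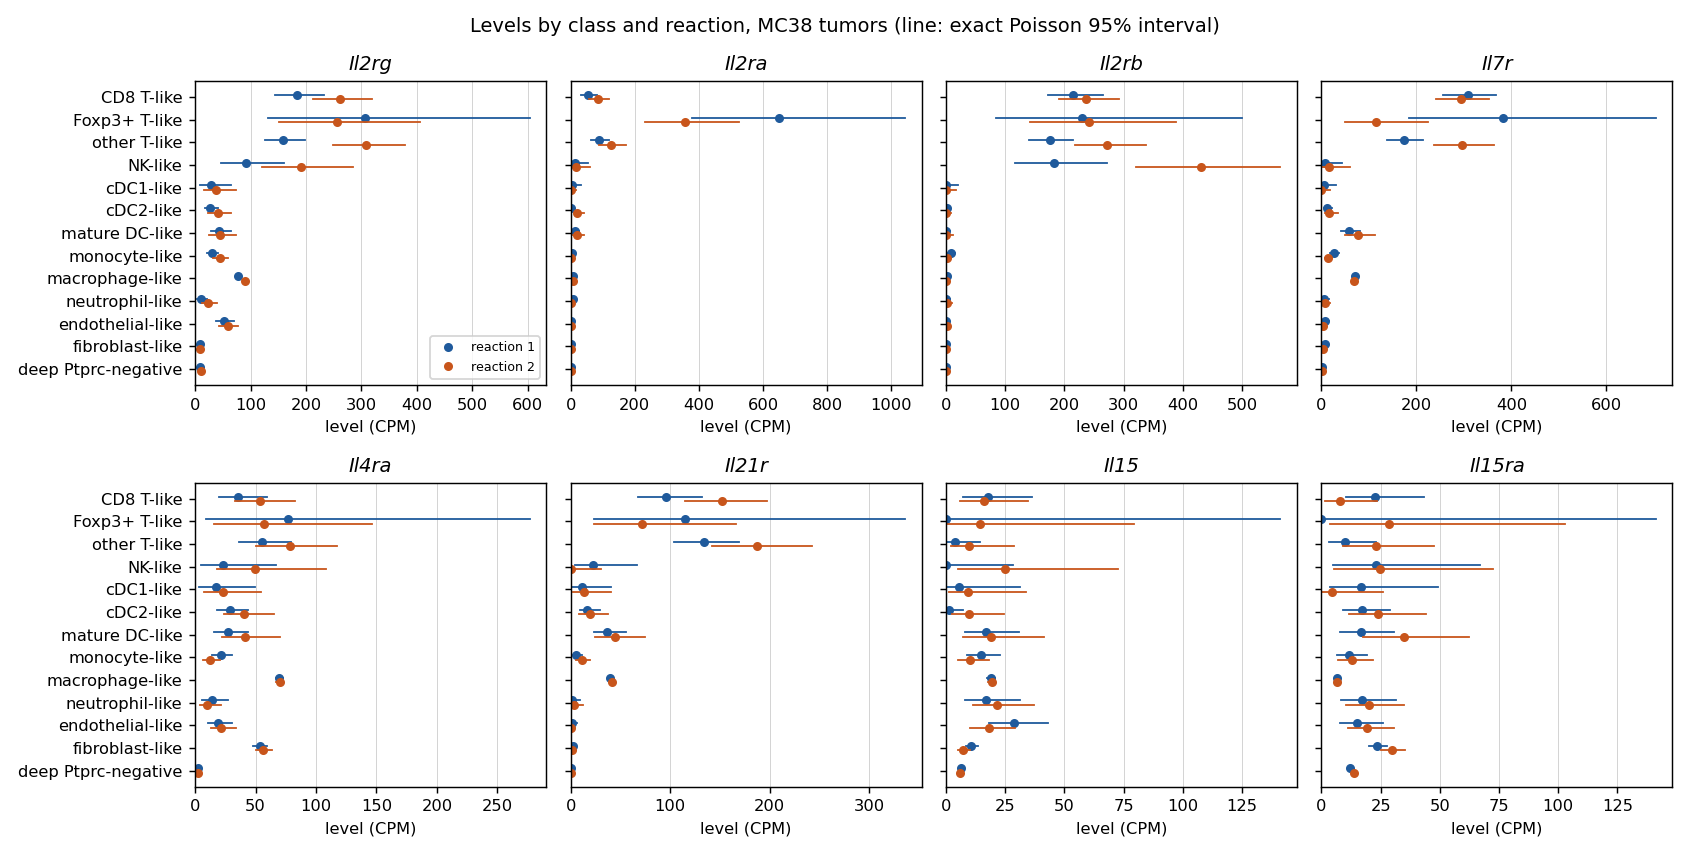
Level of each member in 13 MC38 tumor classes, in CPM on the horizontal axes, which differ in range between panels. Points are the 2 reactions and lines are exact Poisson 95% intervals. Il2ra is highest in the T-like rows and Il2rb in the T-like and NK-like rows, Il2rg and Il21r extend to macrophage-like cells, and Il4ra to fibroblast-like cells (53.3 and 56.5 CPM); Foxp3+ T-like cells have the widest intervals, with 14 cells in each reaction.

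At the level of single cells the same chains were seen in cells thinned to 1000 UMIs, which leaves out shallower cells (95 of 389 CD8 T-like, 6 of 28 Foxp3+ T-like and 5 of 40 NK-like cells in MC38 tumors). Il2ra was found in 45.5% of MC38 Foxp3+ T-like cells (10 of 22, exact 95% interval 24.4 to 67.8%), in 6.12% of CD8 T-like cells and in 0 of 14919 deep Ptprc-negative cells. The exact interval for the last reaches 0.0247% of cells with a UMI at this depth and sets no limit on cells expressing the gene. Without thinning, over all cells of each class, these shares were 60.7%, 10.3% and 0.154%, at median depths of 1611.5, 1258 and 25585 UMIs. Il2rb was found in 37.1% of NK-like cells (13 of 35, interval 21.5 to 55.1%; 70.0% without thinning). In the TDLN, Il2ra was found in 22.7% of Foxp3+ T-like cells (10 of 44, interval 11.5 to 37.8%) and in 0 of 149 CD4 T-like cells. The exact 95% interval for the latter reaches 2.45% of cells with a UMI at this depth. With thinning to 2000 UMIs it was found in 3 of 73 CD4 T-like cells and 4 of 19 Foxp3+ T-like cells. Il7r was found in 44.3% of CD4 T-like and 2.08% of B-like cells there. Transcripts of all 3 IL-2 receptor chains together were found in 5 of 28 MC38 Foxp3+ T-like cells, 7 of 389 CD8 T-like cells and 12 of 447 other T-like cells. Il15 and Il15ra were found together in 642 of 14919 deep Ptprc-negative cells and 60 of 12275 macrophage-like cells, at median depths of 25585 and 3718 UMIs.

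Foxp3+ T-like and CD8 T-like cells of MC38 tumors were compared for the same question as in the node. Il2ra was higher in Foxp3+ T-like cells by 2.20 ± 0.42 (log2 fold change ± SE, n = 2 reactions, edgeR, adjusted p = 0.00331), where the median over all genes was -0.47. With barcodes of 1 hashtag only, the fold change was 2.20 and the adjusted p 0.0657. Of 8 members 1 was called, against 1.64% of all genes, and 0 of 17 pathway genes passed (edgeR; median 0.09). Il2rb (-0.40 ± 0.51), Il2rg (-0.22 ± 0.32) and Il7r (-1.10 ± 0.58) did not pass. Among cells with 1 hashtag, 96.0% of CD8 T-like cells (263 of 274) and 61.9% of Foxp3+ T-like cells (13 of 21) came from CPI tumors. Within CPI tumors alone, Il2ra was at 651 and 664 CPM in 7 and 6 Foxp3+ T-like cells (exact Poisson 95% intervals 312 to 1198 and 332 to 1188 CPM) and at 51.0 and 121 CPM in 125 and 138 CD8 T-like cells (23.3 to 96.8 and 76.8 to 182 CPM). Within CPI tumors these intervals, which cover counting error only, did not overlap between the classes in either reaction. The sums rest on fewer than 10 Foxp3+ T-like cells a reaction, and no fit was run within CPI tumors. In the fitted comparison, which pools the treatments, class and treatment cannot be told apart. In CPM, Il2rb was slightly higher in Foxp3+ T-like cells (230 and 242) than in CD8 T-like cells (215 and 237). Mean Il2rg was also higher (281 against 223 CPM). Both fold changes, which are scaled between sums (TMM) as CPM are not, have the opposite sign. The Il2rb log2 fold changes of 2.00 ± 0.42 in the node and -0.40 ± 0.51 in the tumor also have different reference cells, and the difference between tissues was not tested.

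NK-like cells of the tumor, which depend on IL-15, were set against CD8 T-like cells. Il7r was at 7.63 and 16.6 CPM against 308 and 293 CPM (log2 fold change -4.64 ± 0.83, n = 2 reactions, edgeR, adjusted p = 0.00103). Il21r was at 22.9 and 0 CPM against 96.1 and 152 CPM (-3.35 ± 0.74, adjusted p = 0.00736), a call lost in cells with under 2500 genes (adjusted p = 0.181) and in cells with 1 hashtag (adjusted p = 0.0809). The shared chain Il2rb did not pass (0.44 ± 0.35, adjusted p = 0.595) and neither did Il2rg (-0.65 ± 0.28, adjusted p = 0.236). Of 8 members 2 were called, against 3.75% of all genes. Of 17 pathway genes 2 were called, both lower in NK-like cells: Mcl1, a survival gene downstream of IL-15 and IL-7, and Cish, a feedback inhibitor induced by STAT5. The pathway median was -0.81 beside -0.17 over all genes. CD8 T-like cells were 96.0% from CPI tumors and NK-like cells 37.0% (10 of 27), so treatment cannot be told apart from class in this comparison either. The tumor-type sum was 816 and 985 CPM in NK-like and 496 and 360 CPM in CD8 T-like cells, at median depths of 2715.5 and 1258 UMIs, and their part in the differences was not tested.

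**Figure D3:**
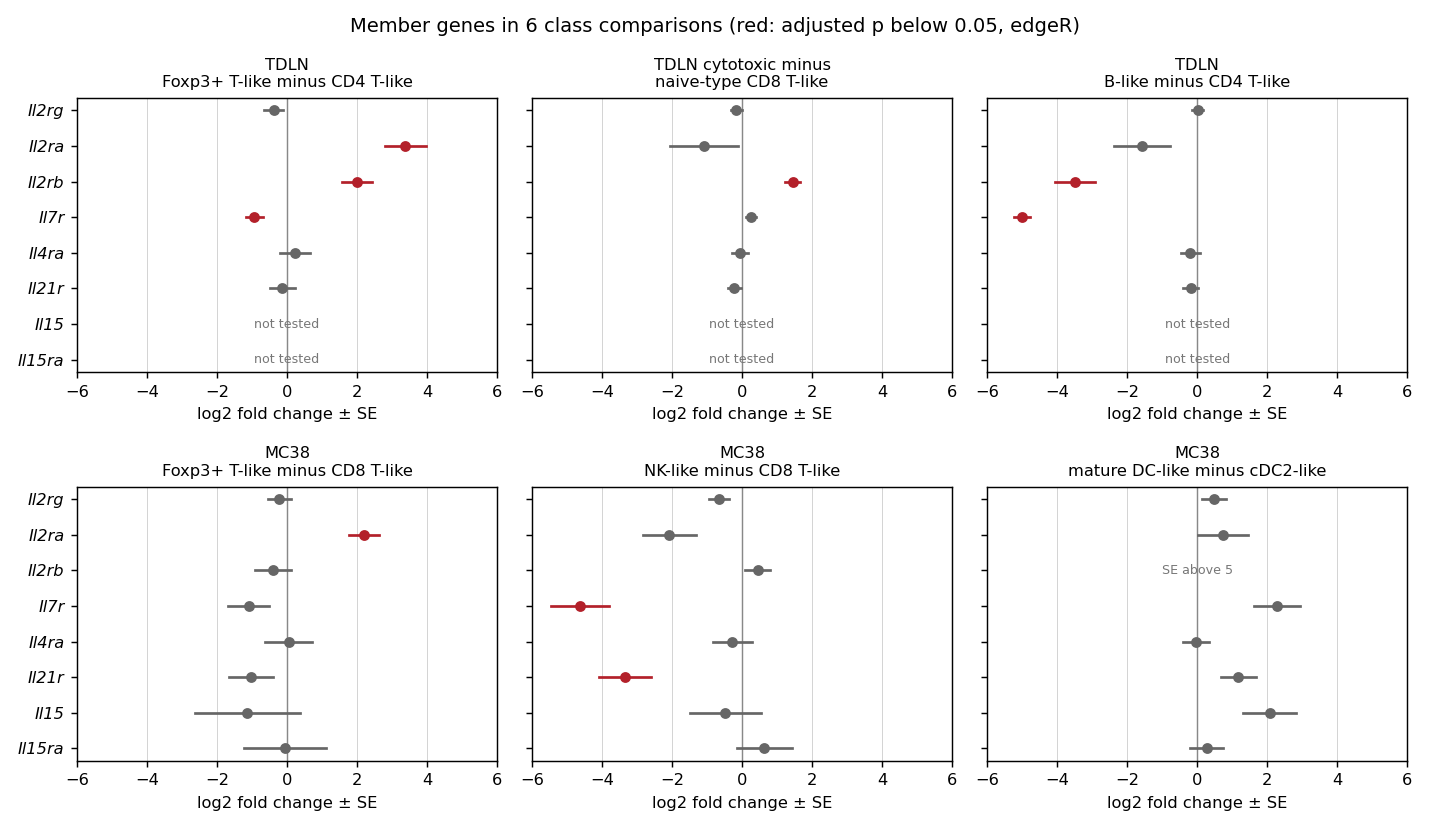
Log2 fold changes (horizontal axes, ± SE) of the members in 6 class comparisons, 3 in the TDLN and 3 in MC38 tumors. Red points have an adjusted p below 0.05 and gray points do not. Il2ra was higher in Foxp3+ T-like cells in both tissues (3.37 and 2.20), and Il7r was lower in B-like cells (-5.00) and NK-like cells (-4.64).

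Mature DC-like cells, which express Ccr7, were compared with cDC2-like cells. Il7r was at 58.7 and 76.1 CPM against 11.8 and 16.8 CPM, with groups that do not overlap, but the difference did not pass (log2 fold change 2.28 ± 0.66, edgeR, adjusted p = 0.124). It passed when low-count genes were not filtered out (edgeR, adjusted p = 4.07e-05). Median depth was 4270 UMIs in mature DC-like and 9004 UMIs in cDC2-like cells, and the part of depth in the differences was not tested. No member was called at an adjusted p under 0.05, against 0.947% of all genes, and of the pathway Socs2, a feedback gene of STAT5, was higher at 45.3 and 73.0 CPM against 1.31 and 4.79 CPM (4.47 ± 0.71, adjusted p = 0.000885).

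Monocyte-like cells differed from macrophage-like cells in 6 of 8 members, all lower, in a comparison where 50.2% of all genes were called. The log2 fold changes were -2.57 ± 0.33 for Il21r, -2.28 ± 0.21 for Il4ra, -2.02 ± 0.34 for Il7r, -1.52 ± 0.59 for Il2ra, -1.44 ± 0.17 for Il2rg and -0.86 ± 0.29 for Il15. All 6 calls were lost in cells with under 2500 genes, and all but Il4ra then changed direction. The sum of tumor-type genes was 1037 to 1368 CPM in monocyte-like and 340 to 352 CPM in macrophage-like cells, at median depths of 10409 and 3718 UMIs. The fibroblast marker sums were 1363 to 1963 and 411 to 542 CPM in the same order. The part of these sums and of depth in the differences was not tested. Il2rb and Il15ra did not pass.

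Treatment was to be compared in CD8 T-like, Foxp3+ T-like and macrophage-like cells, and of these only macrophage-like cells had at least 10 cells in each compared treatment of both reactions. They numbered 3659 and 3790 with isotype, 266 and 212 with isotype + ABT-317, 142 and 127 with CPI, and 231 and 317 with CPI + ABT-317. Il2rg was at 74.9 and 88.4 CPM with isotype and at 150 and 117 CPM with CPI. The CPI values lay above both isotype values, and the difference passed (log2 fold change 0.74 ± 0.19, n = 2 reactions, edgeR, adjusted p = 0.00253). It did not pass when each barcode was given its leading hashtag (0.41, adjusted p = 0.0968). Marker sums in macrophage-like cells of CPI and isotype tumors were 131 to 218 and 278 to 293 CPM for tumor-type genes, 56.6 to 81.9 and 35.1 to 44.8 CPM for neutrophil genes, and 38.9 to 64.8 and 78.2 to 89.4 CPM for B cell genes. T cell genes were at 6.83 and 10.6 CPM with CPI, from 2 and 3 UMIs, and at 2.79 and 1.31 CPM with isotype. Endothelial genes were at 10.2 and 10.6 CPM with CPI, from 3 UMIs each, and at 20.2 and 16.5 CPM with isotype. These CPI counts are too few to compare. The median depth was 1776 and 1982 UMIs with CPI and 3111 and 3747 UMIs with isotype. Their part in the difference was not tested. Of 6 members tested 1 was called, against 25.2% of all genes, so a call was no more common than among genes at large. Of 15 pathway genes tested 4 rose and 3 fell with CPI, with a median of -0.09 beside -0.01 over all genes. Those that rose were Socs1 (1.80 ± 0.29), Jak1 (1.08 ± 0.16), Pim1 (0.65 ± 0.11) and Mcl1 (0.54 ± 0.10), and those that fell were Bcl2l1, Bcl2 and Socs3.

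ABT-317 after CPI was compared with CPI alone, with the same CPI cells as above on the other side. Il7r was at 159 and 159 CPM with CPI + ABT-317, against 51.2 and 67.2 CPM with CPI, 60.2 and 61.9 CPM with isotype and 82.7 and 79.8 CPM with isotype + ABT-317. The CPI + ABT-317 values lay above all others, and the difference from CPI passed (log2 fold change 1.40 ± 0.23, n = 2 reactions, edgeR, adjusted p = 6.09e-06), as it did in the 6 alternatives that allow a test. With 1 reaction left out there was no test, and the log2 ratio was 1.20 or 1.59. Il2rg stayed at 119 and 155 CPM with CPI + ABT-317 against 150 and 117 CPM with CPI (0.02 ± 0.19, adjusted p = 0.953). Il4ra (0.62 ± 0.26, adjusted p = 0.0904), Il21r (0.87 ± 0.36, adjusted p = 0.0902) and Il2ra (2.74 ± 1.13, adjusted p = 0.0880) did not pass, and Il2ra was at 12.2 and 12.2 CPM against 0 and 3.54 CPM. Of 6 members tested 1 was called, against 18.2% of all genes. Of 15 pathway genes tested 2 rose (Bcl2l1 and Socs3) and 3 fell (Jak1, Pim1 and Mcl1), with a median of 0.10 beside 0.02 over all genes. Macrophage-like cells had median depths of 1776 and 1982 UMIs with CPI and 3598 and 4434 UMIs with CPI + ABT-317. The marker sums in the same order were 131 to 218 and 251 to 311 CPM for tumor-type genes and 56.6 to 81.9 and 21.1 to 24.98 CPM for neutrophil genes. Endothelial genes had 3 UMIs in each CPI reaction and 32 and 39 UMIs with CPI + ABT-317, and T cell genes had 2 or 3 UMIs in each of the 4 sums, too few to compare. The part of depth and of these markers in the differences was not tested. Whether the difference in Il7r differs between CPI and isotype backgrounds was not tested.

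**Figure D4:**
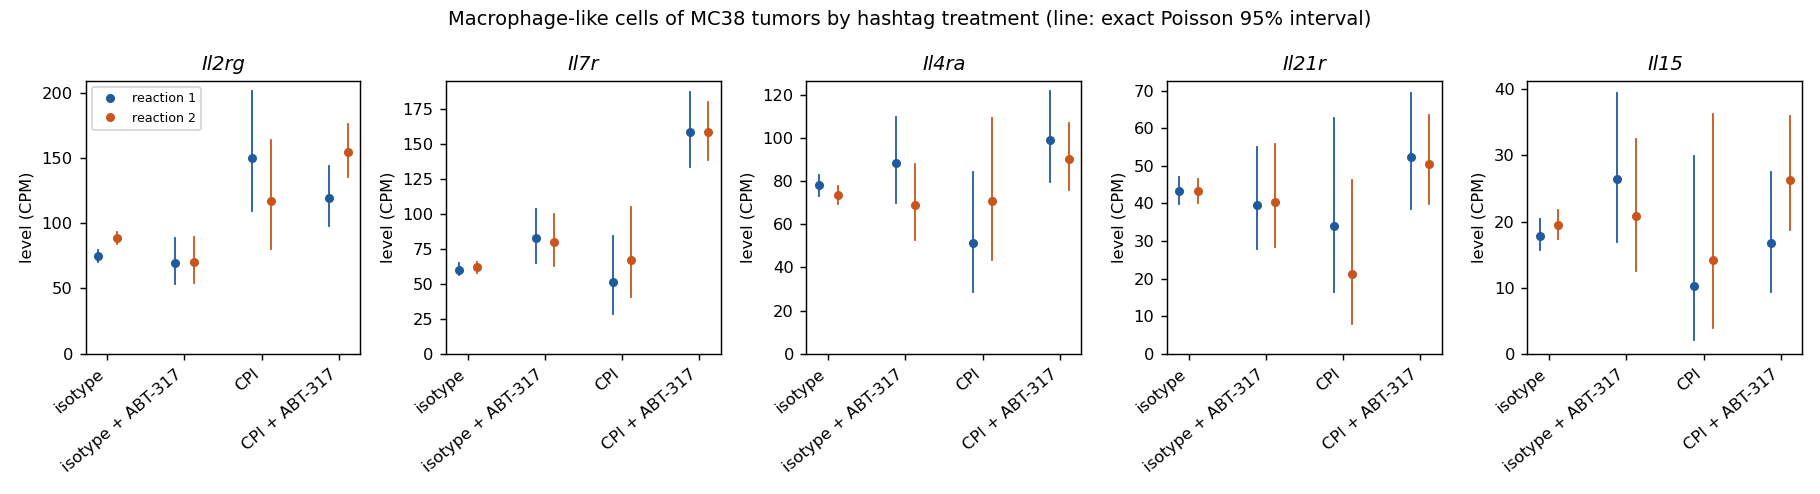
Levels of 5 members (CPM, vertical axes) in macrophage-like cells of MC38 tumors by treatment, with 1 point per reaction and exact Poisson 95% intervals as lines. Il7r with CPI + ABT-317 lies at 159 CPM in both reactions, above the other 3 treatments, and Il2rg is higher in the 2 groups that received CPI.

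CD8 T-like cells with 1 hashtag numbered 263 with CPI, 7 with isotype, 4 with CPI + ABT-317 and 0 with isotype + ABT-317. Among Foxp3+ T-like cells 13 came from CPI and 8 from isotype tumors, under 10 cells in at least 1 reaction, so treatment was not tested in these classes. The IL-2 and IL-15 receptor levels given above for tumor T-like cells are therefore mostly those of CPI tumors. Il2ra and Il2rb also belong to the IFN-γ response list used by the study.

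Surface protein was measured for 2 members in MC38 tumors, CD25 (the Il2ra product) and CD127 (the Il7r product). Median CD25 antibody UMIs per cell were 7 and 9 in Foxp3+ T-like cells, 6 and 6 in CD8 T-like cells, 6 and 6 in deep Ptprc-negative cells and 13 and 15 in endothelial-like cells. As a share of all antibody UMIs, CD25 was 0.149 and 0.0931% in Foxp3+ T-like cells and 0.111 and 0.111% in deep Ptprc-negative cells. The Foxp3+ share was thus higher in reaction 1 and lower in reaction 2. The isotype control antibodies averaged 0.183 to 0.231% over all classes. CD25 lay below the controls of the same class and reaction everywhere but in CD8 T-like cells of reaction 1, so they set no background for CD25. The highest CD25 share, 0.238% in those CD8 T-like cells, rests on 1 barcode with 1552 UMIs, where the next barcode had 21. CD127 took 1.17 to 1.45% in every class, above the isotype controls, with medians of 75 and 74 UMIs in CD8 T-like and 67 and 67 in deep Ptprc-negative cells, whose Il7r RNA was at 0.686 and 0.214 CPM.

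**Figure D5:**
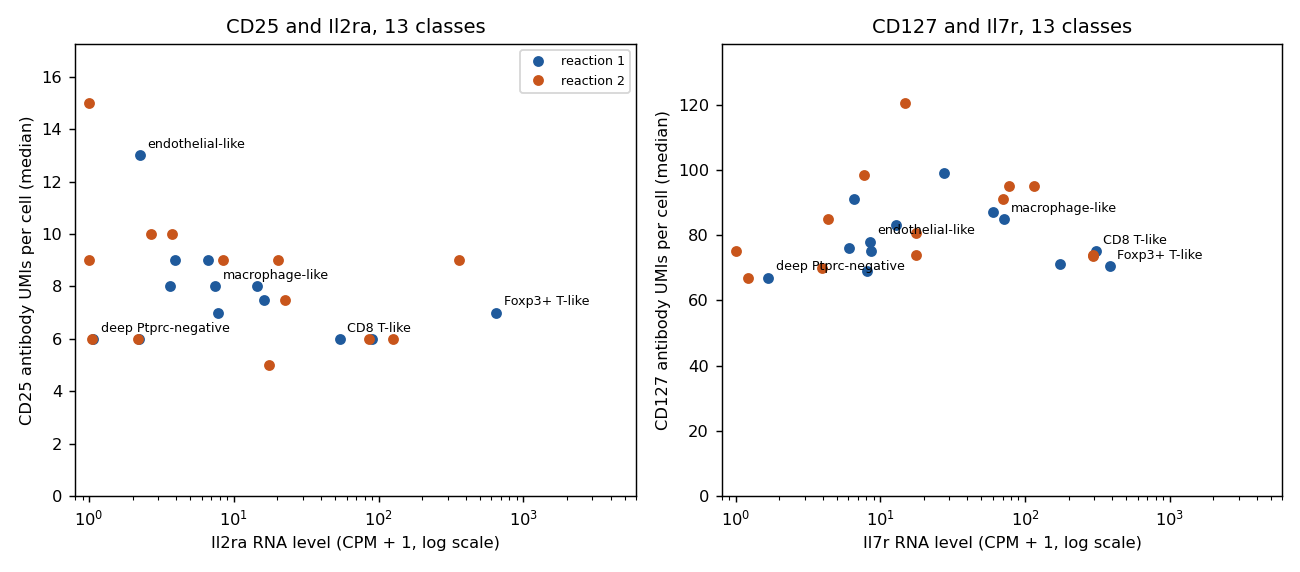
Median antibody UMIs per cell (vertical axes) against RNA level (CPM + 1, log scale) for CD25 with Il2ra and CD127 with Il7r, with 1 point for each of 13 MC38 classes in each reaction. Across an RNA range from below 1 CPM to 651 CPM, the CD25 median stays between 5 and 10 UMIs except in endothelial-like cells (13 and 15), and the CD127 median shows no rise with Il7r.

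The genes with the pattern most like each member were found by Pearson correlation of log2(CPM + 1), over 15 TDLN sums and 26 MC38 sums of a class in a reaction, which share libraries and differ in depth. In the TDLN, Il2ra was most like Maf (r = 0.942), Rgs16 (0.902) and Cdkn2aip (0.879), Il2rb was most like Thy1 (0.935), Ccnd2 and Gramd1b, and Il7r was most like Emb (0.988), Ms4a4b and Gm2682. In MC38 tumors, Il2rb was most like Sh2d2a (0.988), Gimap3 (0.984) and Gzmb (0.978), Il2ra was most like Rhof, Batf and Vps54 (0.912 to 0.918), and Il21r was most like Rel (0.938), Grap2 and Myo1g. For Il7r they were Skil, Tnfrsf1b and Nlrc5 (0.910 to 0.918), for Il2rg Ubald2, AW112010 and Tgfb1, for Il4ra Niban1, Crip1 and H2-T23, for Il15 Tbc1d22a, 4632427E13Rik and Secisbp2l, and for Il15ra Osr2, Pigk and Dnpep. In the TDLN they were Ran, Tbca and Ubald2 for Il4ra, Amd1, Nob1 and Gm20139 for Il21r, and, at levels near the detection limit, Fscn1, Pdhb and Marcks for Il15 and Pop1, Lta and Slc29a1 for Il15ra.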

How the data were processed

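Single-cell 5′ libraries of 5 reactions were used. The authors deposited UMI counts per gene and barcode, and antibody counts for MC38 tumors. The matrix headers name Cell Ranger 7.1.0 (TDLN) and 8.0.1 (MC38), and the submitters' processing notes name 3.1.0 with GRCm38. Barcodes with at least 200 genes and under 10% mitochondrial counts were kept, with no upper gene limit. No doublet caller was run; mixed TDLN barcodes were set aside by marker gates instead.

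Members, gene lists and gates were chosen with earlier results of these data known, and the gate thresholds and the B cell-associated genes that set mixed barcodes aside (Igkc, Cd74, H2-Aa, H2-Ab1, H2-Eb1, Iglc2, Iglc3, Ighd and Ly6d) after the data were seen. Treatments were taken from barcodes positive for 1 hashtag, called by a 2-component fit per hashtag. Counts were summed per class (or treatment) and reaction where at least 10 cells were present and tested with edgeR 4.0.16 (quasi-likelihood, TMM, filterByExpr; R 4.3.3), the reaction as a block, Benjamini-Hochberg adjustment over all genes and a threshold of 0.05. The reaction number pairs sums because they come from the same library. The sources do not say whether reactions hold different mice, so p-values measure the spread between reactions and not between mice. That spread was estimated over genes and classes together. In the TDLN fit the p-values followed a normal distribution of log2 fold change over SE, so a gene's own spread between reactions had little weight. A very small p-value there does not measure how close the reactions were for that gene. Named genes were the 8 members, the called genes of a 24-gene pathway list, and the 3 genes most like each member at 20 CPM or more; those of Il2rg in the TDLN are not reported here. CPM has exact Poisson and shares exact Clopper-Pearson 95% intervals, which cover counting error only. Per-reaction levels are CPM, and mean levels are over reactions. CPM lack the TMM scaling that fold changes have, so a fold change can differ from a ratio of CPM in size and in sign. DESeq2 1.42.0, no block, no low-count filter, cells under 2500 genes, under 5% mitochondrial counts, stricter gates, thinning to 2000 UMIs, other hashtag rules and leaving out a reaction were tried. Positions come from GENCODE vM21 and promoters from RefSeq. Counts were simulated at the depths of these sums with 200 genes changed 4-fold, a set dispersion of 0.05 and the same mean profile for all classes. There, edgeR called 22.5% of the changed genes for TDLN Foxp3+ against CD4 T-like cells (7446 genes) and 18% for MC38 Foxp3+ against CD8 T-like cells (8148 genes). Most changes of that size were thus missed in the simulation. The real classes differ from these settings, so their shares may be other.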

Additional observations from a re-analysis of the deposited data

How the results depend on the processing

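For the 17 member calls over the 9 comparisons, 89 alternative fits kept 71 calls, lost 13 and reversed 5, and 10 calls were gained. In each of 34 values taken from a single reaction the direction was that of both reactions together. These values cover only calls that had passed with the same reactions, so a shared direction was favored in advance. Steps between neighboring classes were not included. Among them, the Il7r step from naive-type CD8 to Foxp3+ T-like cells of the TDLN was reversed in CPM in reaction 1. Without pairing the sums by reaction (no block), the genes called fell from 277 to 141 in TDLN Foxp3+ against CD4 T-like cells, from 70 to 27 in cytotoxic against naive-type CD8 T-like cells and from 163 to 101 in MC38 Foxp3+ against CD8 T-like cells. The Il7r call in TDLN Foxp3+ T-like cells was the only member call lost without it. DESeq2 called 19 genes in place of 70 for cytotoxic CD8 T-like cells, and 561 in place of 372 for NK-like against CD8 T-like cells. Without the low-count filter 162 genes were called in place of 94 for mature DC-like cells. With a stricter gate 1149 genes were called in place of 1844 for B-like cells, 809 higher and 340 lower in place of 932 and 912, with a median over all genes of 0.37 in place of 0.04. In cells with under 2500 genes, 39 genes were called for MC38 Foxp3+ T-like, 100 for NK-like and 312 in place of 4984 for monocyte-like cells; with 1 hashtag these were 37, 73 and 1454. In cells with under 2500 genes the monocyte-like fold changes of Il2ra, Il21r, Il15, Il7r and Il2rg turned to 0.96, 0.11, 0.45, 0.81 and 0.77 on the log2 scale, none past the threshold; fewer cells and 3730 genes were tested, and the cause was not tested further.

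Without TDLN reaction 3, the TDLN comparisons called 274, 73 and 1830 genes. With any 1 reaction left out, 36 to 38 of 56 TDLN and 42 to 47 of 104 MC38 pairs of a member and a class were at 20 CPM or more. Leaving out TDLN reaction 1 or 2 or an MC38 reaction left no residual degrees of freedom for a test in most comparisons, and gave values alone. A stricter gate gave under 10 cells for most comparisons and no value there, and the planned treatment tests in T-like classes were not run for the same reason. Depth limits Il15 and Il15ra in the TDLN and every result on Foxp3+ T-like cells.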
